A study of Homo sapiens with 39 samples.

Results

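TMD8 is a human diffuse large B cell lymphoma cell line of the activated B cell type, and OTX015 (birabresib) is an inhibitor of the bromodomains of the BET family of proteins. The comparison described here is that of 3 TMD8 libraries labelled OTX015 with 3 labelled DMSO, the vehicle, chosen by their labels alone: 6 of the 39 RNA-seq libraries of the study. Per their labels the cells were treated for 6 h; no dose was in the labels. A protocol text common to the whole study gives different drugs and adds a treatment of days, and the labels of each single sample were followed instead. The remaining libraries are TMD8 with NEO2734, an inhibitor of both the BET proteins and the acetyltransferases CBP and p300, the lines OCILy10 (activated B cell type), DOHH2 and Toledo (germinal centre type) with the same 3 treatments, and OCILy10 with CB103. All 6 libraries come from 1 cell line without a named genetic change, and whether the 3 libraries of a group are separate cultures is not in the labels, so p-values reflect only the spread between libraries of a group, estimated over all 39 libraries, which may be technical.

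BET proteins bind acetylated histones through their bromodomains and bring the elongation kinase P-TEFb to promoters and enhancers. Their inhibitors displace them from chromatin. Lymphomas of the activated B cell type are known for constant signalling through the B cell receptor, MYD88 and NF-kB, which can maintain IL10 and interferon loops in the same cells.

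Replicate 1 was the deepest library of each group. The DMSO libraries held 9157472, 1865925 and 2175778 counts and the OTX015 libraries 7502499, 1309531 and 1895299. Depth thus differed within both groups in the same way, and a term for deep against shallow libraries was fitted. Gene levels differed too: 799 genes tested with DMSO and 840 with OTX015 were at least 4-fold apart between replicate 1 and the mean of replicates 2 and 3. Whether replicate 1 is a separate batch is not in the labels. Depth and any other difference of replicate 1 cannot be told apart. Levels below are CPM, counts divided by TMM-adjusted library size, given for replicates 1, 2 and 3 in that order; ± after a log2 change is its SE from edgeR's quasi-likelihood fit over all 39 libraries. The 6 libraries detected 13702 to 14146 genes, and the mitochondrial share of their counts was 9.07 to 12.7%. Genes particular to another of the 4 lines reached at most 1.37% of that line's level in these 6 libraries. In 3 libraries of the other lines they exceeded 5%, reaching 82.6% of the OCILy10 level in Toledo DMSO replicate 2. Since those 3 enter the estimate of the spread, counts without them are also given for a part of the lists. The 7 B cell markers were all detected in the 6 libraries; no monocyte marker exceeded 1.58 CPM. Of 4 T cell markers measured CD2 had 0 counts and TRAC at most 0.554 CPM, while CD5 reached 39.6 CPM and CD4 10.6 CPM. The sum of these 4 was 44.5, 18.3 and 36 CPM with DMSO and 13.6, 6.46 and 7.37 CPM with OTX015. CD5 had 444 counts with DMSO and 73 with OTX015, and 0 of the 4 were called. Without the 3 libraries of other lines CD5 was called lower in edgeR's test (adjusted p = 0.00202). The part of these 4 markers in the results was not tested.

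With OTX015, 340 of 12814 genes tested passed a Benjamini-Hochberg adjusted p under 0.05 in edgeR's quasi-likelihood test, which is 2.65% of them. In bulk RNA, fewer expressing cells and less RNA per cell cannot be told apart. Lower genes outnumbered higher genes: 232 fell (1.81%) and 108 rose (0.843%), with a change of at least 2-fold in 187 of the falls (1.46% of genes tested) and 66 of the rises (0.515%). The median log2 change over all genes tested was -0.03. All 232 genes that fell and 106 of the 108 that rose had the same sign in each of the 3 replicate numbers. Their selection in the same libraries favours such agreement, so it is no separate support. The 3 and 3 libraries did not overlap for 287 of the 340, against 1648 of all genes tested (12.9%). The deep replicate 1 deviated in the same way in the 2 groups (r = 0.94 across genes). Replicates 2 and 3 were hardly matched by number, their difference correlating between the groups with an r of 0.058. With the number as a block in place of the depth term 230 genes were called, 172 lower and only 58 higher. Scaling by library totals without TMM factors gave 363 genes, 204 lower and 159 higher, so the split between directions depends on the scaling. Without the 3 libraries of other lines named above, 746 of 13160 genes tested were called, 496 lower and 250 higher, and the 340 were all among them. List counts given below for that fit stand beside these totals, not beside the shares of the 340. Part of their increase is the larger number of calls over all genes. Leaving out any 1 of the 6 libraries left between 123 genes (without OTX015 replicate 1) and 228 (without DMSO replicate 2); the count was 168 without DMSO replicate 1, 150 without DMSO replicate 3, 180 without OTX015 replicate 2 and 197 without OTX015 replicate 3.

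Interferon-stimulated genes fell. Of 50 tested, 34 were called lower and 0 higher, against 1.81% and 0.843% of all genes; 25 of the 34 fell at least 4-fold, and the list's median log2 change was -2.42 (-2.33 with genes without counts in a group held at their bound). These genes are switched on by type I and type II interferons through STAT and IRF factors and encode antiviral effectors, RNA sensors and regulators of the pathway itself. Their summed level was 6410, 4456 and 8353 CPM with DMSO and 1685, 1031 and 1752 CPM with OTX015, that is 26.3, 23.1 and 21% of the DMSO library of the same number. The highest OTX015 library lay far below the lowest DMSO library. With the replicate block 34 members were called, without the 3 libraries of other lines 42, and without any 1 of the 6 libraries between 18 (without OTX015 replicate 1) and 34; the count was 23, 34 and 22 without DMSO replicate 1, 2 and 3, and 22 and 28 without OTX015 replicate 2 and 3. Members of the list made up 10 of the 12 largest falls of all genes that met the naming rule, which are shown with the 12 largest rises in the plot of levels by library.

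**Figure D1:**
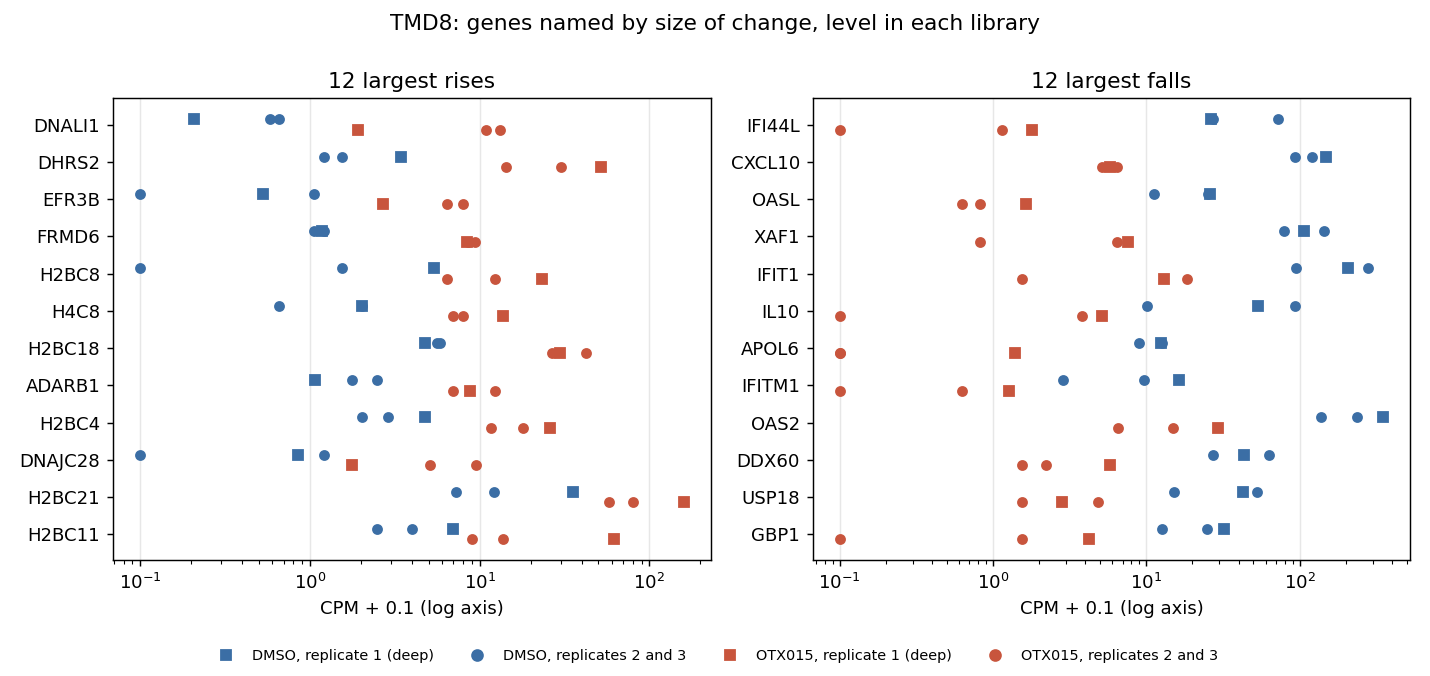
Level of the 12 largest rises and the 12 largest falls in each of the 6 TMD8 libraries, as CPM plus 0.1 on a log axis; squares are the deep replicate 1, circles replicates 2 and 3, blue DMSO and red OTX015. The naming rule admits only called genes whose groups do not overlap, so the 3 OTX015 libraries lie on one side of the 3 DMSO libraries by selection. CXCL10, for example, falls from between 93.1 and 148 CPM to between 5.02 and 6.32 CPM.

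Effectors that act on foreign RNA were among the largest falls. IFIT1, which binds RNA lacking the host's cap methylation, was at 207, 94.2 and 281 CPM with DMSO and 12.9, 1.43 and 18.4 CPM with OTX015 (log2 change -4.08 ± 0.72, adjusted p = 0.00149). OAS2, which makes the 2'-5' oligoadenylates that activate RNase L, was at 352, 137 and 238 CPM and then 29.1, 6.46 and 14.7 CPM (-3.86 ± 0.63, adjusted p = 0.000719). In both genes replicate 2 was the lowest library of each group, and the groups stayed wide apart. OASL, a relative of the OAS enzymes that aids RIG-I signalling, went from 26.1, 11.1 and 25 CPM to 1.55, 0.717 and 0.526 CPM (-4.39 ± 0.74, adjusted p = 0.000952). DDX60, a helicase of the antiviral response, went from 43.4, 27.1 and 63.4 CPM to 5.70, 1.43 and 2.11 CPM (-3.77 ± 0.76, adjusted p = 0.00429). XAF1, which binds the caspase inhibitor XIAP, fell from 107, 79.2 and 145 CPM to 7.51, 0.717 and 6.32 CPM (-4.32 ± 0.73, adjusted p = 0.000952). These 5 genes kept their call whichever of the 6 libraries was left out.

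APOL6, an apolipoprotein L family member induced by interferon, had the lowest p of the large falls. It was at 12.3, 8.86 and 12.5 CPM with DMSO and at 1.29, 0 and 0 CPM with OTX015 (-3.97 ± 0.52, adjusted p = 5.69e-05), with no count in 2 of the 3 treated libraries. IFI44L was at 26.4, 27.1 and 72.1 CPM and then 1.68, 0 and 1.05 CPM (-4.78 ± 1.25, adjusted p = 0.0322); it lost the call without any library other than DMSO replicate 2 (adjusted p 0.0979, 0.139, 0.153, 0.126 and 0.135 without DMSO replicates 1 and 3 and OTX015 replicates 1, 2 and 3). IFITM1, a membrane protein that blocks viral entry, went from 16.3, 2.77 and 9.61 CPM to 1.17, 0 and 0.526 CPM (-3.93 ± 0.72, adjusted p = 0.00195, and 0.112 without OTX015 replicate 1). Its treated libraries were all under the lowest DMSO library, as the naming rule requires, and it has close paralogs whose reads may not be separable by counting. USP18, which removes ISG15 from proteins and dampens the interferon receptor, went from 42.6, 15 and 52.9 CPM to 2.72, 1.43 and 4.74 CPM (-3.61 ± 0.77, adjusted p = 0.00735), but not past the threshold without DMSO replicate 1 (0.121), DMSO replicate 3 (0.0594), OTX015 replicate 1 (0.0978) or OTX015 replicate 2 (0.0509). GBP1, a GTPase of the guanylate-binding family, went from 31.9, 24.9 and 12.5 CPM to 4.14, 1.43 and 0 CPM (-3.60 ± 0.83, adjusted p = 0.0133, and 0.123 and 0.0674 without OTX015 replicates 1 and 3).

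The cytosolic RNA sensors fell with the effectors. IFIH1 (MDA5) was at 131, 114 and 175 CPM with DMSO and 18.6, 11.5 and 19.5 CPM with OTX015 (-3.08 ± 0.39, adjusted p = 5.69e-05). RIGI, which encodes RIG-I, was at 96.9, 60.4 and 108 CPM and then 12.7, 9.32 and 16.8 CPM (-2.76 ± 0.35, adjusted p = 5.69e-05), and IFIT3, the partner of IFIT1, was at 199, 77 and 141 CPM and then 17.3, 7.17 and 10.5 CPM (-3.54 ± 0.46, adjusted p = 5.69e-05). All 3 had every treated library far below the lowest DMSO library and kept their call without any 1 of the 6 libraries. Other called members included MX1, EPSTI1, HERC6, PARP14, TRIM22, EIF2AK2, TRIM21 and ADAR, with log2 changes from -3.36 for MX1 to -1.02 for ADAR. The 16 members that did not pass ranged from HERC5 (-5.08 ± 1.72, adjusted p = 0.161) to GBP4 (0.63 ± 1.36, adjusted p = 0.941), and ISG15 was among them at -3.08 ± 1.08 (adjusted p = 0.149).

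**Figure D2:**
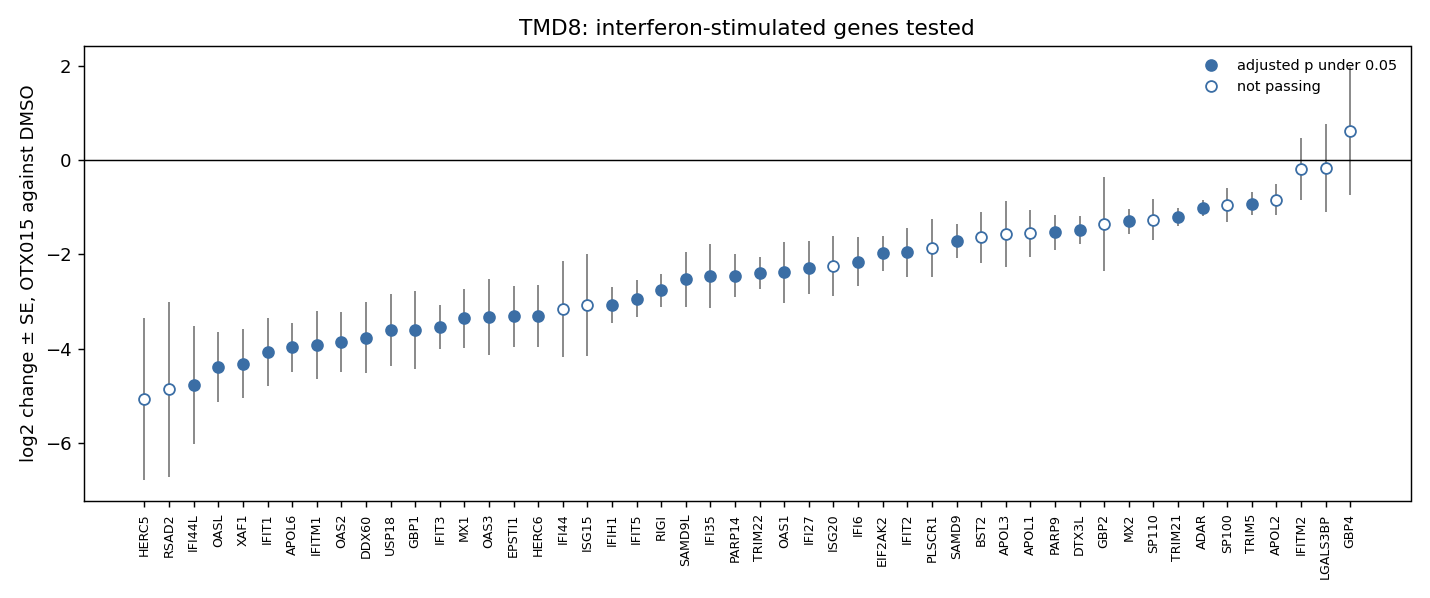
Log2 change with OTX015 against DMSO of the 50 interferon-stimulated genes tested in TMD8, ordered by size; bars are 1 SE, filled points passed an adjusted p under 0.05 and open points did not. All but GBP4 lie below 0, and the 34 filled points run from IFI44L at -4.78 to TRIM5 at -0.92.

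Of 19 genes that carry the interferon signal 1 was called (5.26%, against 2.65% of all genes), with a median log2 change of -0.40. That gene was IRF2, a factor that binds the same DNA element as IRF1, at 85.8, 69.8 and 91.3 CPM with DMSO and 35.3, 33.7 and 53.2 CPM with OTX015 (-1.03 ± 0.19, adjusted p = 0.00224, and 0.063 without OTX015 replicate 1). CGAS, the cytosolic DNA sensor, had a log2 change of -1.40 ± 0.43 (adjusted p = 0.0823) and IRF1 of -0.82 ± 0.26 (adjusted p = 0.0903), and neither passed. Without the 3 libraries of other lines CGAS passed (adjusted p = 0.000969), and 4 genes of this list were called lower.

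Promoter windows of the falling genes were read for the core of the interferon-stimulated response element, the site of STAT and IRF complexes. The windows run from 250 bases before to 50 bases after the start site in RefSeq (GRCh38.p14), so that they hold promoter sequence and the first bases of the first exon, and were used for the 6843 tested genes with exactly 1 window. The letters GAAA, any 2 bases and GAAA were present on either strand in 3.16% of all 6843 windows, in 28 of 112 windows of genes called lower (25%), and in 2 of 62 windows of genes called higher (3.23%). Among called interferon-stimulated genes 16 of 21 windows held it (76.2%), and so did 6 of 6 windows of list members that were not called. Outside that list it was in 12 of 91 windows of genes called lower (13.2%). IFIT1, CXCL10 and DDX60 are printed because they are among the largest falls; the capitals mark the element on either strand (IFIT1 at chr10:89392373-89392672, plus strand, CXCL10 at chr4:76023448-76023747, minus strand, DDX60 at chr4:168318703-168319002, minus strand). Each is written 5' to 3' on the gene's strand.
IFIT1: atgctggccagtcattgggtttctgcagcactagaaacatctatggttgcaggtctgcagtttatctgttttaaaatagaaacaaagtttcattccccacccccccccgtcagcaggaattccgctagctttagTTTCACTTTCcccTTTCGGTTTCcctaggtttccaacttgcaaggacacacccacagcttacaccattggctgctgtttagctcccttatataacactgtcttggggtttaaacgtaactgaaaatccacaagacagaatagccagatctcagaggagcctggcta
CXCL10: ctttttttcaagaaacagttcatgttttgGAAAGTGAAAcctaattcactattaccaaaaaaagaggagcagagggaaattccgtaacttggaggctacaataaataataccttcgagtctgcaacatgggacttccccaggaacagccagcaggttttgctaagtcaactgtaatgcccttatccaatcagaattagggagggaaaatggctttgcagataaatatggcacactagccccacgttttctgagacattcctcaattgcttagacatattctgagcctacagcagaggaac
DDX60: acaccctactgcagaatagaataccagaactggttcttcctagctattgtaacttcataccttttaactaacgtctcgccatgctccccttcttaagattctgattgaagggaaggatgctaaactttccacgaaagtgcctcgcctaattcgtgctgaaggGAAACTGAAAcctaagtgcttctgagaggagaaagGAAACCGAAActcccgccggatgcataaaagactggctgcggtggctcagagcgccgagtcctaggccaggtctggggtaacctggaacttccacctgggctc
The element was present 2 times in the IFIT1 and DDX60 windows and 1 time in that of CXCL10, starting 116, 88 and 221 bases before the start site at the first occurrence. The window of RIGI, which fell as well, did not hold these letters. Among the other motifs read, GGGA, any 4 bases and CC, the core of NF-kB-type sites, was in 33.0% of windows of genes called lower against 29.7% of all, CACGTG, the E-box bound by MYC and MAX, in 12.5% against 10.8%, and GGAA, any 2 bases and GAAA, an ETS-IRF composite that can overlap the first element, in 12.5% against 2.82%. A match describes the letters only.

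Some cytokine and NF-kB genes fell as well. NF-kB factors are kept active in this type of lymphoma through the B cell receptor and MYD88, and of 43 tested subunits and targets 8 were called lower and 0 higher, against 1.81% and 0.843% of all genes (median log2 change -0.49). The count was 5 with the replicate block, 12 without the 3 libraries of other lines, 1 without DMSO replicate 3 or OTX015 replicate 2, 3 without OTX015 replicate 1 or 3, and 4 without DMSO replicate 1. CXCL10, a chemokine that draws T cells and is a target of both NF-kB and interferon, was at 148, 93.1 and 121 CPM with DMSO and 5.70, 5.02 and 6.32 CPM with OTX015 (-4.43 ± 0.77, adjusted p = 0.00122) and kept its call without any 1 library. IL10, the cytokine that feeds back on activated B cell lymphoma cells through STAT3, was at 53.5, 9.97 and 93.2 CPM and then 5.05, 0 and 3.68 CPM (-4.07 ± 0.90, adjusted p = 0.0113). Its DMSO libraries spread widely, with replicate 2 the lowest, yet stayed above the treated ones, as the naming rule requires. The adjusted p was 0.153, 0.0899 and 0.066 without DMSO replicate 3, OTX015 replicate 1 and OTX015 replicate 2.

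BIRC3, an inhibitor of apoptosis and NF-kB target, was at 129, 125 and 359 CPM with DMSO and 68.4, 61.7 and 110.0 CPM with OTX015 (-1.30 ± 0.28, adjusted p = 0.0085, but 0.24 without DMSO replicate 3 and 0.0919 without OTX015 replicate 2). TNFAIP3 (A20), which shuts NF-kB signalling down, was at 144, 107 and 231 CPM and then 101, 68.9 and 79 CPM (-0.98 ± 0.24, adjusted p = 0.0194). That call was lost with the replicate block (0.0813) and without any of DMSO replicate 3 (0.373), OTX015 replicate 1 (0.0818), 2 (0.119) or 3 (0.0767). TNFAIP2 had a log2 change of -2.57 ± 0.60 (adjusted p = 0.0157), with DMSO replicate 3 at 96.1 CPM against 22.9 and 15 in the others; it was lost without DMSO replicate 1 (0.0557), DMSO replicate 3 (0.214), OTX015 replicate 2 (0.0874) and OTX015 replicate 3 (0.123). ICAM1, LTA and LTB completed the 8. DMSO replicate 3 was the highest DMSO library for BIRC3, TNFAIP2, TNFAIP3 and IL10. NFKBIZ, which encodes the atypical regulator IκBζ, did not pass at -0.78 ± 0.48 (adjusted p = 0.546).

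In the Toll-like receptor pathway, 2 of 22 genes tested were called (9.09%), both lower and both under every omission of 1 library. Over all genes 1.81% were called lower. TLR7, the endosomal receptor for single-stranded RNA, was at 75.1, 69.8 and 96.6 CPM with DMSO and 17.5, 19.4 and 8.95 CPM with OTX015 (-2.40 ± 0.36, adjusted p = 0.000364). MYD88, the adaptor that TLR7 signals through, was at 246, 132 and 222 CPM and then 99.4, 78.2 and 80.5 CPM (-1.21 ± 0.19, adjusted p = 0.00058). Each gene's treated libraries were below all DMSO libraries. CD180 (-1.74 ± 0.58, adjusted p = 0.118) and TLR10 (-1.11 ± 0.43, adjusted p = 0.203) did not pass. Without the 3 libraries of other lines both passed (adjusted p = 0.00021 and 0.0165), and 4 genes of this pathway were called lower. Among 18 genes of the STAT3, IL10 and PIM axis 2 were called lower (11.1%, against 1.81% of all genes), IL10 and IL2RA. IL2RA, the interleukin 2 receptor alpha chain, changed by -3.56 ± 0.91 (adjusted p = 0.0279, and 0.0747 with the replicate block). Its call was lost without any library except DMSO replicate 2 (adjusted p up to 0.142). PIM1, a kinase of this axis, did not pass (-0.34 ± 0.35, adjusted p = 0.794), nor did SOCS3 (-1.96 ± 0.66, adjusted p = 0.131), the pathway's feedback inhibitor. Without the 3 libraries of other lines SOCS3 passed (adjusted p = 0.0165), and 5 genes of this axis were called lower.

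MYC, the growth regulator for which BET inhibitors are best known, fell. It was at 226, 64.3 and 339.8 CPM with DMSO and 53.9, 28.7 and 34.2 CPM with OTX015 (log2 change -2.44 ± 0.36, adjusted p = 0.000356). The DMSO libraries were uneven, with replicate 2 the lowest, but the highest treated library was below it, and the call held without any 1 library. In the MYC and MAX network 15.4% of 13 genes tested were called, against 2.65% of all genes. MXD1, which competes with MYC for MAX, was the single gene called higher. It went from 8.20, 6.65 and 5.29 CPM to 19.7, 14.3 and 24.2 CPM (1.52 ± 0.38, adjusted p = 0.0257). On leaving out 1 library it kept the call only without OTX015 replicate 2, the adjusted p reaching 0.156 otherwise. Of 54 MYC targets of ribosome biogenesis and growth 3 were called lower and 0 higher, against 1.81% and 0.843% of all genes (median log2 change -0.37): POLR1B, a subunit of RNA polymerase I (-0.77 ± 0.17, adjusted p = 0.0113), MRTO4, a ribosome assembly factor (-0.70 ± 0.17, 0.0231), and PRMT3, a methyltransferase of ribosomal protein (-0.83 ± 0.22, 0.0389). MRTO4 and PRMT3 were not called with the replicate block (0.0524 and 0.103), 9 of the list were called without the 3 libraries of other lines, and 0 without DMSO replicate 3, OTX015 replicate 1 or OTX015 replicate 2. The list's summed level was 86.4, 79.8 and 74.1% of DMSO in the 3 replicate numbers.

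No gene was called among 40 of the cell cycle and replication (median log2 change -0.10), among 15 D-type cyclins, their kinases and inhibitors (median -0.22), or among 34 ribosomal proteins (median 0.02). Of all genes tested 2.65% were called, so 0 calls in lists of this size are near that share. The summed level of the cyclin list was 67.8, 61 and 52.4% of DMSO in the 3 replicate numbers. CCND2, cyclin D2, was at 498, 509 and 1272 CPM with DMSO and 198, 166 and 375 CPM with OTX015 (-1.59 ± 0.75, adjusted p = 0.333). Its groups did not overlap, and its adjusted p was 0.00228 without the 3 libraries of other lines. There 2 genes of the cyclin list were called lower. CDKN1A, the p21 inhibitor, had a log2 change of -0.10 ± 0.38 (adjusted p = 0.98). The summed level of the cell cycle list differed more between the DMSO libraries (8832, 6762 and 3440 CPM) than with treatment (8760, 5970 and 2851 CPM).

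**Figure D3:**
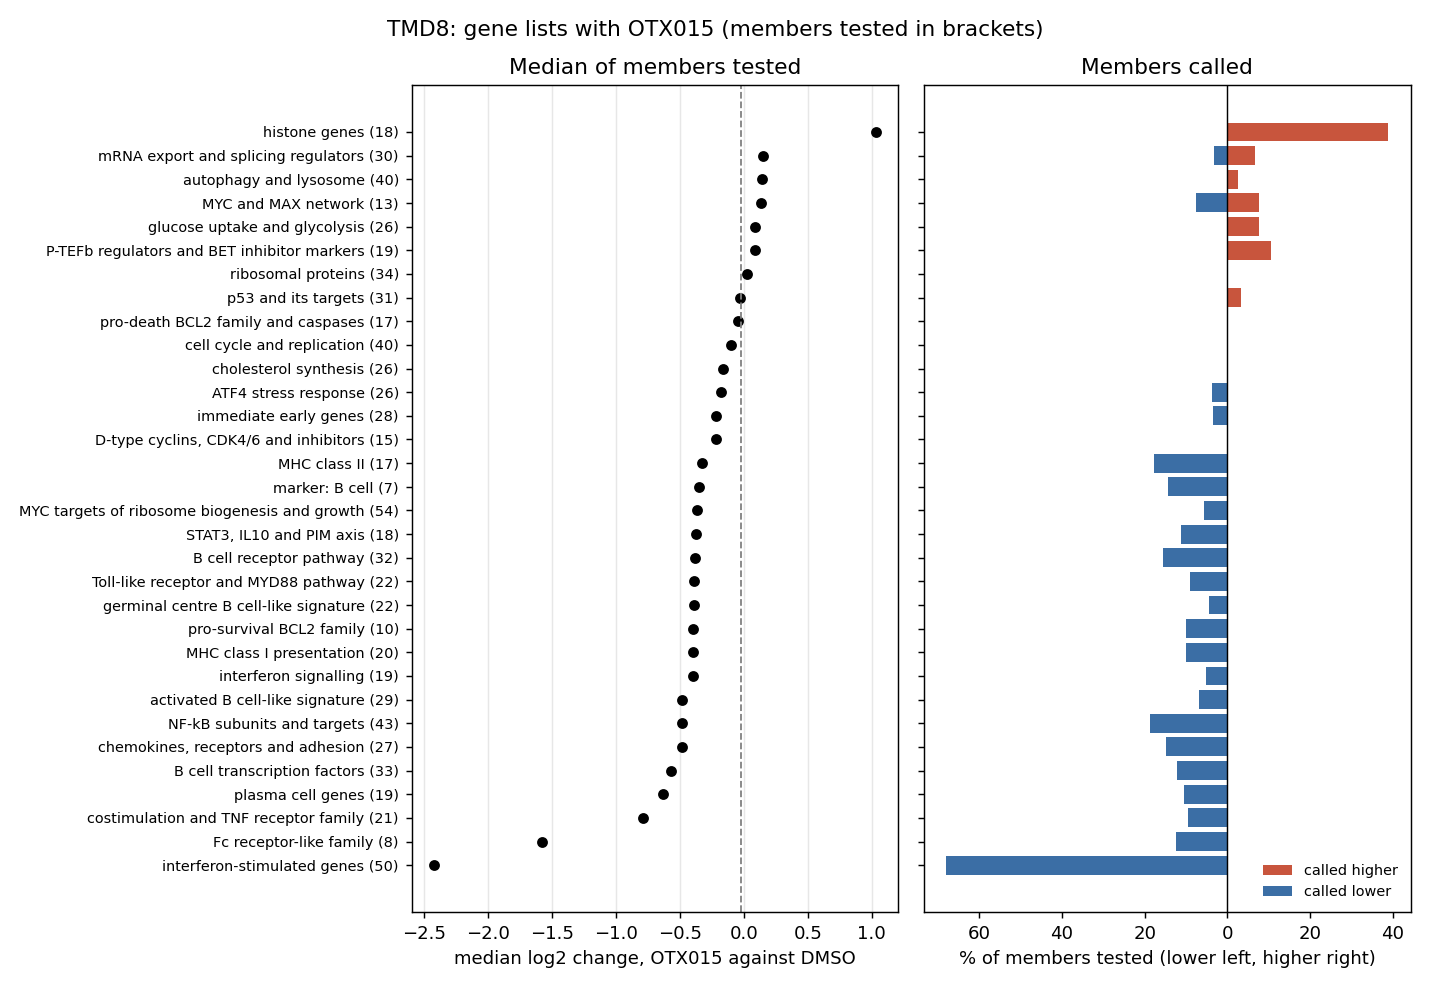
Left, median log2 change with OTX015 of the members tested of each gene list in TMD8, with the median of all 12814 genes as a dashed line; right, share of members called lower (blue, to the left) and higher (red, to the right). Interferon-stimulated genes stand lowest with a median of -2.42 and 34 of 50 called lower, and histone genes highest with a median of 1.03 and 7 of 18 called higher.

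Of 33 B cell transcription factors tested, 4 were called lower and 0 higher, against 1.81% and 0.843% of all genes (median log2 change -0.57). The count was 3 with the replicate block and 9 without the 3 libraries of other lines, where 496 of 13160 genes were called lower. PAX5, the factor that holds cells in the B lineage, was at 669, 516 and 769 CPM with DMSO and 302, 210.2 and 259.5 CPM with OTX015 (-1.35 ± 0.22, adjusted p = 0.000624). POU2AF1, the coactivator of OCT factors in B cells, was at 85.2, 169.5 and 249.9 CPM and then 34.7, 35.1 and 82.1 CPM (-1.67 ± 0.31, adjusted p = 0.00195). Both held without any 1 library. XBP1, of the secretory programme, changed by -1.05 ± 0.23 (adjusted p = 0.00813, and 0.126 and 0.0766 without DMSO replicate 3 and OTX015 replicate 2). IKZF1 (Ikaros) changed by -1.04 ± 0.29 (adjusted p = 0.0483), a call lost with the block (0.322) and without each of the 6 libraries.

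IRF4, a factor on which this lymphoma type depends, did not pass: it was at 1710.1, 712 and 1825 CPM with DMSO and 1042, 557 and 621 CPM with OTX015 (-0.98 ± 0.32, adjusted p = 0.115), with DMSO replicate 2 inside the range of the treated libraries. Its adjusted p was 0.00582 without the 3 libraries of other lines and 0.0488 without DMSO replicate 2. SPIB, its partner, was at 871, 1284 and 1817 CPM and then 1060.0, 1584 and 2485 CPM (0.36 ± 0.34, adjusted p = 0.754), with overlapping groups. BCL6, the germinal centre repressor, had a log2 change of -0.09 ± 0.58 (adjusted p = 1.00) and PRDM1 (BLIMP1), the plasma cell regulator, one of -0.63 ± 0.48 (adjusted p = 0.666); neither passed. In the signature lists 2 of 29 activated B cell-like genes (IL16 and ENTPD1) and 1 of 22 germinal centre-like genes were called, all lower, with medians of -0.49 and -0.39. The shares were 6.90 and 4.55%, against 1.81% of all genes called lower. ENTPD1 was lost with the block (0.734) and without each of the 6 libraries, and IL16 without DMSO replicates 1 and 3 and OTX015 replicates 1 and 2 (adjusted p up to 0.112). The germinal centre-like gene was SERPINA9, a serpin, which went from 27.1, 18.3 and 20.7 CPM to 2.72, 0.717 and 2.11 CPM (-3.58 ± 0.57, adjusted p = 0.00141) without overlap. Without the 3 libraries of other lines 7 activated B cell-like genes were called lower, and 3 germinal centre-like genes lower and 1 higher.

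In the B cell receptor pathway 5 of 32 genes were called lower and 0 higher, against 1.81% and 0.843% of all genes (median log2 change -0.38). They were adaptors and modulators: LAT2, a membrane adaptor, went from 47.7, 33.2 and 48.1 CPM to 17.3, 11.5 and 13.2 CPM (-1.58 ± 0.25, adjusted p = 0.00058), and SASH3, an adaptor of lymphocytes, from 32.9, 39.9 and 41.3 CPM to 14.1, 15.8 and 11.1 CPM (-1.47 ± 0.28, adjusted p = 0.00231). HVCN1, a proton channel associated with the receptor, changed by -2.64 ± 0.48 (adjusted p = 0.00192, and 0.0521 without OTX015 replicate 1), and CD72, an inhibitory co-receptor, by -2.01 ± 0.39 (adjusted p = 0.00339, and 0.0666 without DMSO replicate 3). The kinase BLK was the remaining gene. The count was 3 without OTX015 replicate 1 and 8 without the 3 libraries of other lines. CD79B, the receptor's signalling chain, was at 206, 94.7 and 248 CPM with DMSO and 150.3, 223 and 177 CPM with OTX015 (-0.03 ± 0.51, adjusted p = 1.00). MS4A1 (CD20) had a log2 change of -0.72 ± 0.41 (adjusted p = 0.485), and neither of these surface genes passed. Without the 3 libraries of other lines MS4A1 passed (adjusted p = 0.0392).

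Genes of contact with other immune cells included some of the clearer falls. ITGAL, the alpha chain of LFA-1, was at 348, 345 and 219 CPM with DMSO and 98.9, 81.8 and 55.3 CPM with OTX015 (-1.97 ± 0.35, adjusted p = 0.00149). CD48, a ligand of the SLAM family, was at 65.4, 33.8 and 45.2 CPM and then 28.2, 8.61 and 10 CPM (-1.68 ± 0.29, adjusted p = 0.00113), and FCRL2, an Fc receptor-like protein of B cells, was at 96.8, 85.3 and 149 CPM and then 28.4, 18.6 and 23.2 CPM (-2.23 ± 0.43, adjusted p = 0.00267). These 3 showed no overlap and kept their call without any 1 library. ICAM1, the ligand of LFA-1, was also called (-1.47 ± 0.38, adjusted p = 0.028), but its groups overlapped and the call was lost without any library except DMSO replicate 2 (adjusted p up to 0.604). ITGA4, the alpha chain of VLA-4, fell as well (-1.48 ± 0.33, adjusted p = 0.0112, and 0.0552, 0.0674 and 0.0789 without DMSO replicate 2, OTX015 replicate 1 and OTX015 replicate 3). By list, 4 of 27 chemokine and adhesion genes, 2 of 21 costimulation genes (CD48 and TNFRSF17) and 1 of 8 Fc receptor-like genes were called lower, and 0 higher. The shares were 14.8, 9.52 and 12.5%, against 1.81% of all genes called lower. Without the 3 libraries of other lines 5, 6 and 3 of these lists were called lower. TNFRSF17 (BCMA) changed by -2.39 ± 0.54 (adjusted p = 0.0107). Its call was lost with the block (0.069) and without DMSO replicate 2 (0.0571), OTX015 replicate 1 (0.164) or OTX015 replicate 2 (0.0512). With XBP1 it also made up the 2 of 19 plasma cell genes called lower (10.5%). In the Fc receptor-like list the block called 3, adding FCRL3 (0.0238) and FCRL4 (0.0188).

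In antigen presentation 3 of 17 genes of MHC class II (17.6%) and 2 of 20 of class I (10%) were called lower and 0 higher. Over all genes 1.81% were called lower and 0.843% higher. CIITA, the transactivator of class II genes, was at 74.6, 77.6 and 101 CPM with DMSO and 33.1, 20.1 and 27.9 CPM with OTX015 (-1.59 ± 0.32, adjusted p = 0.00429), apart in every library. RFX5, a subunit of the complex that binds class II promoters, changed by -0.62 ± 0.15 (adjusted p = 0.0231) and HLA-DMB, a peptide loader, by -1.16 ± 0.32 (adjusted p = 0.0497, and 0.0837 with the block); RFX5 lost the call without any library except DMSO replicate 2 (up to 0.166) and HLA-DMB without each of the 6. The list's summed level was 97.2, 106.8 and 64.5% of DMSO in the 3 replicate numbers. For MHC class I 2 of 20 were called lower, the trimming peptidases ERAP2 (-1.50 ± 0.30, adjusted p = 0.00452, and 0.0569 without OTX015 replicate 1) and ERAP1 (-0.76 ± 0.19, adjusted p = 0.0257), the latter not without any 1 of the 6 libraries (up to 0.148). TAP1, the peptide transporter, had a log2 change of -1.78 ± 0.52 (adjusted p = 0.065, and 0.0134 with the block). Without the 3 libraries of other lines TAP1 passed (adjusted p = 0.00116). There 5 genes of class I and 4 of class II were called lower.

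Rises were fewer, and HEXIM1 had the lowest p among them in the lists. HEXIM1 holds P-TEFb in an inactive complex, and its rise is a known mark of BET inhibition. It was at 46.9, 57.1 and 70.6 CPM with DMSO and 121, 219 and 314 CPM with OTX015 (1.80 ± 0.24, adjusted p = 6.35e-05). Replicate 1 was the lowest library of each group, and each treated library was above all DMSO libraries. CDK9, the kinase of P-TEFb, was at 51.9, 48.8 and 39.4 CPM and then 76.4, 93.2 and 73.2 CPM (0.77 ± 0.19, adjusted p = 0.0194). That call was lost with the block (0.0581) and without DMSO replicate 2 (0.0608), DMSO replicate 3 (0.166), OTX015 replicate 1 (0.106) or OTX015 replicate 2 (0.116). These were the 2 of 19 genes of the P-TEFb and BET marker list that were called (10.5%, against 2.65% of all genes). SERPINI1, another known marker, had at most 0.647 CPM in a library and gave no call (2.44 ± 1.38, adjusted p = 0.476).

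Histone genes rose: 7 of 18 tested were called higher and 0 lower, against 0.843% and 1.81% of all genes, with a median log2 change of 1.03. The summed level of the list was 1844, 1058 and 1070 CPM with DMSO and 2734, 2116 and 2092 CPM with OTX015, so the lowest treated library was above the highest DMSO library. H2BC21, an H2B gene outside the main cluster, was at 35.6, 7.20 and 12 CPM and then 159, 58.1 and 79.5 CPM (2.54 ± 0.46, adjusted p = 0.00188), and held without any 1 library. H2BC11 was at 6.91, 3.88 and 2.40 CPM and then 61.9, 13.6 and 8.95 CPM (2.49 ± 0.42, adjusted p = 0.000952, and 0.0602 without DMSO replicate 1). Replicate 1 was the highest library of each group for both genes, without overlap of the groups, which the naming rule requires. H2BC4 was at 4.64, 2.77 and 1.92 CPM and then 26, 17.9 and 11.6 CPM (2.55 ± 0.52, adjusted p = 0.00462), H2BC8 changed by 2.67 ± 0.61 (adjusted p = 0.012) and H4C8 by 2.65 ± 0.59 (adjusted p = 0.0101). With the replicate block these 3 did not pass (0.0524, 0.0889 and 0.111), leaving 4 of the list. H2AC6 and H2BC5 completed the 7. Without DMSO replicate 1 a single histone gene was called, without OTX015 replicate 1 there were 3, and without any other library 5 or 6, while 8 were called without the 3 libraries of other lines. Histone genes are near copies of each other, so reads may be shared between them, and how such reads were counted is not given in the sources used here.

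Among the other largest rises, DHRS2, a short-chain dehydrogenase, was at 3.34, 1.11 and 1.44 CPM with DMSO and 51.7, 30.1 and 14.2 CPM with OTX015 (4.01 ± 0.66, adjusted p = 0.000741). DNALI1, a dynein light chain of cilia, had 3 counts in the DMSO libraries together and 54 with OTX015, a ratio of 21.5 after scaling with a 95% exact counting interval of 6.97 to 107 that covers counting error only (adjusted p = 0.000364). Both kept their call without any 1 library. H2BC18, an H2B gene outside the histone list, was at 4.64, 5.54 and 5.77 CPM and then 29.8, 26.5 and 42.1 CPM (2.64 ± 0.59, adjusted p = 0.0101); it did not pass without DMSO replicate 1 (0.0854), DMSO replicate 3 (0.0557), OTX015 replicate 1 (0.0617) or OTX015 replicate 3 (0.0501). FRMD6, a FERM domain protein, was at 1.08, 1.11 and 0.961 CPM and then 8.29, 9.32 and 8.42 CPM (2.99 ± 0.64, adjusted p = 0.00735, and 0.0866 and 0.0588 without DMSO and OTX015 replicate 1). The groups of both genes did not overlap, which the naming rule requires.

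EFR3B, a membrane anchor of a phosphoinositide kinase, changed by 3.13 ± 0.66 (adjusted p = 0.00663, and 0.052 without DMSO replicate 1). ADARB1, an adenosine deaminase that edits RNA, changed by 2.62 ± 0.63 (adjusted p = 0.0186) and lost its call without DMSO replicate 1 (0.216), DMSO replicate 2 (0.0561), OTX015 replicate 1 (0.132) or OTX015 replicate 2 (0.0744). DNAJC28 changed by 2.54 ± 0.65 (adjusted p = 0.0279); it was not called with the block (0.121) or without any library except OTX015 replicate 1 (up to 0.215). All 3 were low with DMSO, at most at 2.40 CPM in a library. SESN3, a sestrin that restrains mTORC1, was at 1.29, 3.88 and 3.84 CPM and then 6.99, 17.2 and 26.3 CPM (2.49 ± 0.41, adjusted p = 0.000718). It was the single gene called of 31 p53 targets (3.23%, against 2.65% of all genes). NXF1, the main export receptor of mRNA, was at 148, 173 and 139 CPM and then 309, 368 and 314 CPM (1.11 ± 0.18, adjusted p = 0.00058). SESN3 and NXF1 rose in every replicate number and kept their call without any 1 library.

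Called rises in the other lists were small in number. Of all genes tested 2.65% were called. The share was 7.69% for the glucose list, 2.5% for autophagy and lysosome and 10% for mRNA export and splicing regulators. It was 3.57% for immediate early, 3.85% for ATF4 stress and 10% for pro-survival genes. TXNIP and ARRDC3, arrestin-related proteins that respond to glucose, were the 2 of 26 called in the glucose list (1.07 ± 0.30, adjusted p = 0.0497, and 1.06 ± 0.28, adjusted p = 0.0341); with the block they had 0.0634 and 0.0746, and each lost its call in at least 4 of the 6 omissions. NEU1, a lysosomal sialidase, was the 1 of 40 autophagy and lysosome genes called (1.17 ± 0.26, adjusted p = 0.0112), and was lost in 4 of the 6 omissions, up to 0.0797. In the list of mRNA export and splicing regulators (30 tested) NXF1 and RSRP1 were called higher and HNRNPDL lower, the last 2 not with the block (0.0937 and 0.229); RSRP1 lost its call in 5 of the 6 omissions (up to 0.296) and HNRNPDL in all 6 (up to 0.183). ZFP36L1, an RNA decay factor, was the 1 of 28 immediate early genes called, lower at -1.22 ± 0.27 (adjusted p = 0.00918, and 0.166 with the block, 0.0609 without DMSO replicate 1 and 0.0891 without OTX015 replicate 3). XPOT, a tRNA exporter, was the 1 of 26 ATF4 stress genes called, lower at -0.71 ± 0.19 (adjusted p = 0.0367), and not without any 1 of the 6 libraries. Of 10 pro-survival BCL2-related genes only BIRC3 was called, and 0 of 17 pro-death genes and 0 of 26 cholesterol synthesis genes were. BCL2 had a log2 change of -0.45 ± 0.19 (adjusted p = 0.276), MCL1 of -0.34 ± 0.19 (adjusted p = 0.469) and BCL2A1 of -0.59 ± 0.63 (adjusted p = 0.798).

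BRD2 and BRD3, which encode BET proteins that the drug binds, did not pass. BRD2 was at 266, 293 and 323 CPM with DMSO and 394, 421 and 426 CPM with OTX015 (0.50 ± 0.14, adjusted p = 0.0501); the groups did not overlap, and it passed in DESeq2 (0.00226) and without the 3 libraries of other lines (0.00664). BRD3 (0.12 ± 0.28, adjusted p = 0.95), CREBBP (-0.03 ± 0.17, adjusted p = 0.993) and EP300 (0.13 ± 0.17, adjusted p = 0.852) did not pass, with overlapping libraries.

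A TATA motif was counted in the same promoter windows. TATAAA was present on either strand in 12 of 62 windows of genes called higher (19.4%), in 5.36% of those called lower and in 5.55% of all 6843. Of the 10 windows of the largest rises 5 held it. H2BC21 and DHRS2 are printed as 2 of the largest rises and HEXIM1 as the marker gene, with TATAAA on either strand in capitals (H2BC21 at chr1:149886633-149886932, minus strand, DHRS2 at chr14:23629865-23630164, plus strand, HEXIM1 at chr17:45148225-45148524, plus strand; GRCh38.p14, RefSeq).
H2BC21: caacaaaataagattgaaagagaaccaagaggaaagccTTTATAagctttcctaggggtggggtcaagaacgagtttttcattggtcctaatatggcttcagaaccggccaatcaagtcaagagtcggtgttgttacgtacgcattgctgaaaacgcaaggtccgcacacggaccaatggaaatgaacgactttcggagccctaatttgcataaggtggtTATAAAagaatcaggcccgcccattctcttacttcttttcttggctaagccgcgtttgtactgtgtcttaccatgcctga
DHRS2: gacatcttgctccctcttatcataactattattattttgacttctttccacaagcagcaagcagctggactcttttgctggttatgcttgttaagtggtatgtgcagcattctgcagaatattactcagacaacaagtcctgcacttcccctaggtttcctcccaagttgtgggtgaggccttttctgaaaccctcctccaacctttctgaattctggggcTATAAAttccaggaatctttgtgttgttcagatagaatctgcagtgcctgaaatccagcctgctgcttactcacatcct
HEXIM1: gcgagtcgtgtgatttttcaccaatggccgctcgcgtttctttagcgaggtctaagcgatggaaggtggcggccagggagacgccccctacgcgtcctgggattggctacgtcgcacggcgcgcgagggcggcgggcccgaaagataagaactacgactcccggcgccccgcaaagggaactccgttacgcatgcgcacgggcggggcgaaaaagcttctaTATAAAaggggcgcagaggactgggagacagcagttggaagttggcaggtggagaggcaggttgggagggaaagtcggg
In DHRS2 and HEXIM1 the motif began 29 bases before the start site. Histone genes make up part of these counts, and a match describes the letters only.

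The same treatment was read in the other 3 lines. In OCILy10 302 genes were called (2.36%), 1.12% of genes tested higher and 1.24% lower. In DOHH2 260 were called (2.03%), 1.23% higher and 0.804% lower, and in Toledo 1048 (8.18%), 2.59% higher and 5.59% lower. Toledo DMSO replicate 2 held OCILy10 genes at 82.6% of that line's level and Toledo genes at 47.0%. It enters all Toledo values given here, and its part in them was not tested. Of the 108 genes that rose in TMD8, 43, 44 and 57 were also called higher in these lines, and 104, 104 and 102 had the same sign. Of the 232 that fell, 53, 33 and 82 were also called lower, and 226, 206 and 215 had the same sign; none was called with the other sign. Over all genes tested 68.3, 67.8 and 66.5% had the same sign in TMD8 and these lines. Of the falls 118 were called in no other line and 11 in all 3; of the rises 27 were called in no other line and 16 in all 3. The median log2 change of the genes that fell was -1.50 in TMD8, where they were chosen for passing, and -0.83, -0.59 and -0.82 in OCILy10, DOHH2 and Toledo; for the genes that rose it was 1.18 against 0.85, 0.92 and 0.84.

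**Figure D4:**
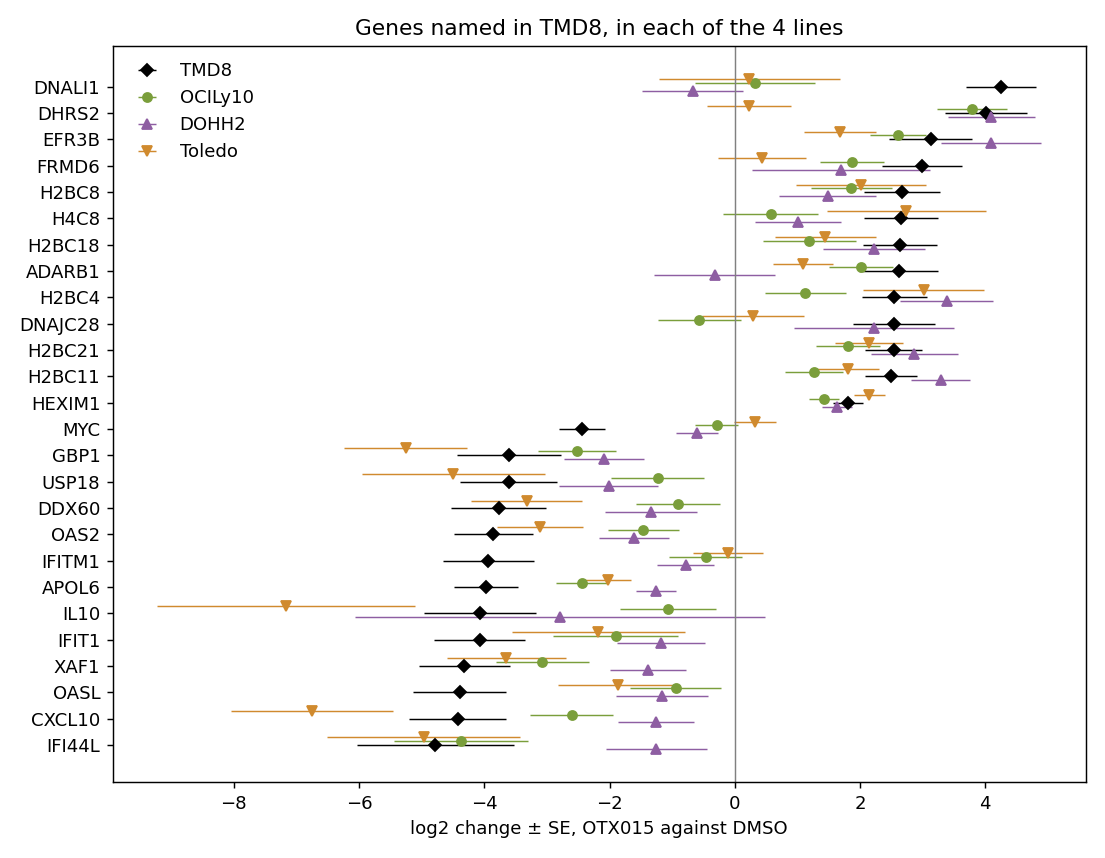
Log2 change with OTX015 against DMSO, with bars of 1 SE, of the 24 largest TMD8 changes with HEXIM1 and MYC, in TMD8 (diamonds), OCILy10 (circles), DOHH2 (upward triangles) and Toledo (downward triangles). HEXIM1 lies between 1.42 and 2.15 in all 4 lines, while MYC is at -2.44 in TMD8 and between -0.61 and 0.33 in the others.

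Interferon-stimulated genes were called lower in 34 of 50 cases in TMD8, 7 in OCILy10, 4 in DOHH2 and 23 in Toledo, with medians of -2.42, -0.94, -0.91 and -1.78. Their summed level with DMSO was 3379 to 4943 CPM in OCILy10, 2828 to 7805 CPM in DOHH2 and 1443 to 3303 CPM in Toledo, where the highest library is 1 of the 3 that hold another line's genes. That library, replicate 2, also enters the Toledo calls and medians given here, and its part in them was not tested. Toledo DMSO replicates 1 and 3 were at 1739 and 1443 CPM. With OTX015 it was 1986 to 2804, 2258 to 3696 and 923 to 1395 CPM in these lines; the treated TMD8 libraries, at 1031 to 1752 CPM, lay below those of OCILy10 and DOHH2, and 2 of the 3 lay above those of Toledo. Histone genes were called higher in 7 of 18 cases in TMD8, 0 in OCILy10, 5 in DOHH2 and 5 in Toledo, at medians of 1.03, 1.08, 1.16 and 1.45.

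**Figure D5:**
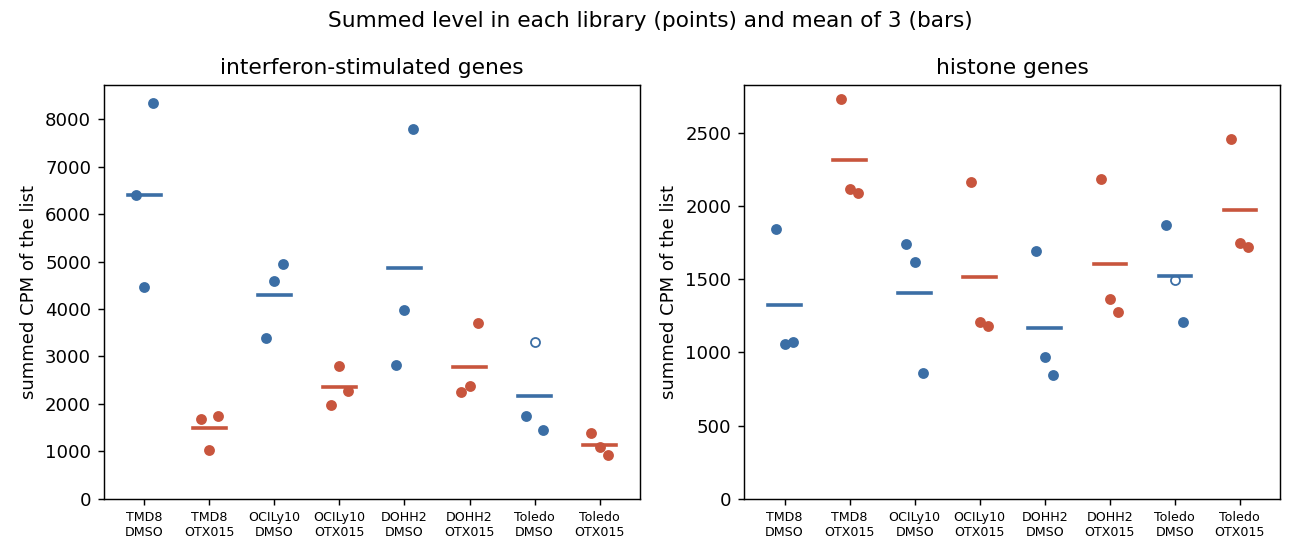
Summed CPM of the interferon-stimulated genes (left) and of the histone genes (right) in each DMSO (blue) and OTX015 (red) library of the 4 lines, with the mean of 3 as a bar; the open point is the Toledo DMSO library that holds another line's genes. In TMD8 the interferon sum falls from between 4456 and 8353 CPM to between 1031 and 1752 CPM, and the histone sum rises from between 1058 and 1844 CPM to between 2092 and 2734 CPM.

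No gene passed the test of a difference between the TMD8 response and the mean response of the other 3 lines in edgeR's quasi-likelihood test (0 called, 0%, with 467 genes, 3.64%, at an unadjusted p under 0.05; 17 called in DESeq2 and 4 in limma-voom), nor between TMD8 and OCILy10 alone (0 called, 0%, 450 unadjusted, 3.51%; 9 in DESeq2 and 1 in limma-voom). Some DESeq2 calls had log2 differences of extreme size. Against the other lines these included -22.2 for PNMA8A, -20.4 for NLRP2 and 17.2 for OAT, and against OCILy10 27.2 for IGLV2-11. The DESeq2 counts are therefore not read as separate support. In edgeR's test MYC had the lowest p. Its log2 change was lower in TMD8 than on average in the others (difference -2.26 ± 0.41, adjusted p = 0.0754). In OCILy10 the mean MYC level was 138 CPM with DMSO and 99.3 CPM with OTX015, in DOHH2 it was 265 and 179 CPM, and in Toledo 187 and 236 CPM; MYC passed in none of these 3 lines. The difference passed in DESeq2 (0.00014), with 1 depth term shared by the lines (0.047), without the 3 libraries that hold another line's genes (0.0126) and without DMSO replicate 2 (0.000116), the lowest MYC value among the DMSO libraries. HERC1, a large ubiquitin ligase, was 506, 649 and 651 CPM with DMSO and 414, 377 and 558 CPM with OTX015 in TMD8 (-0.41 ± 0.18, adjusted p = 0.3), while it was higher with OTX015 in OCILy10 (0.75), DOHH2 (0.69) and Toledo (0.76) on the log2 scale (difference -1.15 ± 0.22, adjusted p = 0.0754). RIGI (-2.04 ± 0.41, adjusted p = 0.112), IFIH1 (-2.12 ± 0.43, adjusted p = 0.115) and IFIT5 (-2.03 ± 0.44, adjusted p = 0.201) followed with a larger fall in TMD8. Without the 3 libraries that hold another line's genes 9 genes passed, all lower in TMD8: SLFN5, IFIH1, PARP14, MYC, JUN, RIGI, IFIT3, OAS2 and HERC1, of which IFIH1, PARP14, RIGI, IFIT3 and OAS2 are in the interferon-stimulated list; these were named after their values were seen. The smallest p-values on the higher side were those of DNALI1 and SESN3 (difference 4.29 ± 1.00 and 1.66 ± 0.44, adjusted p = 0.428 and 0.502). DNALI1 passed in limma-voom against the others (0.000268) and against OCILy10 (0.0438), and SESN3 in DESeq2 against OCILy10 (0.0103).

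NEO2734, which adds inhibition of CBP and p300 to that of the BET proteins, was measured in the same line against the same DMSO libraries. Because those libraries are shared and no dose is in the labels, the 2 compounds are set side by side without a test between them. The NEO2734 contrast had 1058 called genes (8.26%), of which 387 were higher (3.02%) and 671 lower (5.24%). IFIT1 was at 4.27, 0.875 and 12.2 CPM with NEO2734 beside 12.9, 1.43 and 18.4 CPM with OTX015, and OAS2 at 20.3, 4.37 and 20.7 CPM beside 29.1, 6.46 and 14.7 CPM. MYC was at 24, 19.7 and 19.1 CPM beside 53.9, 28.7 and 34.2 CPM, and PAX5 at 136, 96.7 and 151 CPM beside 302, 210.2 and 259.5 CPM. HEXIM1 was at 151, 314 and 372 CPM beside 121, 219 and 314 CPM, and H2BC21 at 227, 63.9 and 114 CPM beside 159, 58.1 and 79.5 CPM. Of the interferon-stimulated genes 41 of 50 were called lower with NEO2734, and of the histone genes 8 of 18 were called higher. The summed interferon level was 1392, 876 and 1562 CPM with NEO2734 beside 1685, 1031 and 1752 CPM with OTX015.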

How the data were processed

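RNA-seq counts were analysed for 39 libraries of 4 lymphoma cell lines, of which the 6 TMD8 libraries labelled DMSO or OTX015 are described. Per the labels' protocols RNA was isolated in Trizol and an Illumina TruSeq RNA kit was used for the libraries. The authors deposited whole-number counts per gene. STAR, edgeR and hg38 are named, without versions, per the submitters' processing notes; the counting program, its annotation and the strandedness, all not given in the sources used here, mean that overlapping genes on opposite strands may share counts. A further table of the same libraries, labelled as normalized, was not used. All count columns matched a sample title (0 were left unmapped). Symbols were attached to 14179 of 15808 gene IDs, and 1629 had none.

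All 39 libraries entered 1 model in edgeR 4.0.16 under R 4.3.3, by quasi-likelihood with TMM factors and filterByExpr by group. It had 13 group coefficients, a term for deep (at least 6670250 counts) against shallow (at most 3420458) libraries within each of the 4 lines and 22 residual degrees of freedom; 12814 genes were tested. A gene was called at an adjusted p (Benjamini-Hochberg) under 0.05. Contrasts were OTX015 against DMSO in each line, NEO2734 against DMSO in TMD8, and the TMD8 response minus that of the other lines. The script was checked on simulated counts drawn with the spread of the fit, for genes of at least 5 CPM on average in TMD8. It called 98% of genes raised 4-fold and 34% of those raised 2-fold. Of genes lowered 4-fold and 2-fold it called 86 and 40%. Not passing is therefore no sign that a gene was unchanged. Named were the 12 largest rises and 12 largest falls among called genes with non-overlapping libraries and at least 5 CPM on average in DMSO or OTX015, up to 4 members of each gene list by p, the 5 lowest p of each difference in each direction, and a fixed set of BET, B cell and survival genes. The members, gene lists, rules and tests were chosen with earlier results of these data known. Lists are described by counts and medians, with no set test.

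Deviations from the group mean were compared between same-numbered DMSO and OTX015 libraries of TMD8, since the labels give no pairing. Across 8361 genes r was 0.94, 0.42 and 0.68 for numbers 1, 2 and 3, genes being no independent replicates. The difference between replicates 2 and 3 correlated between the groups with an r of 0.058, so only the deep replicate 1 was clearly matched. DMSO replicate 2 correlated more with OTX015 replicate 3 (0.575) than with its own number, and DMSO replicate 3 with OTX015 replicate 2 at 0.486; these are the shallow libraries. The fit with the number as a block is an alternative, and its values stand beside a result where they change a call. Other alternatives were other scalings, DESeq2 1.42.0, limma-voom (limma 3.58.1), other filters, other depth terms, fewer libraries, and leaving out each library. Promoter windows came from RefSeq, with no genome sequence used. Intervals cover counting error only. Some genes of the fixed set are not reported here.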

Additional observations from a re-analysis of the deposited data

How the results depend on the processing

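The TMD8 count of 340 called genes stayed within 1.5 times under 9 alternatives: library totals (363), upper quartile factors (355), DESeq2 (469), limma-voom (320), no filter (314), a filter of 5 CPM in 3 libraries (333), a depth term shared by the lines (236), the replicate block in place of the depth term (230, of which 203 were among the 340) and the 9 TMD8 libraries alone (369). With the 6 DMSO and OTX015 libraries alone and the replicate block it was 384. It moved to 50 without a depth term, to 207 in the 6 libraries alone with the depth term, to 5 in the shallow libraries, to 0 in the deep libraries (699 at an unadjusted p under 0.05, with 1 library each of TMD8 DMSO and OTX015, assumed to vary like the 2 OCILy10 groups that have 2 deep libraries), and to 746 without the 3 libraries that hold another line's genes. The fits on fewer libraries have fewer residual degrees of freedom; for the other shifts the cause was not tested. Leaving out 1 of the 6 libraries gave between 123 and 228.

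For the response in TMD8 minus the mean of the other lines, 0 genes were called in the fit described and in the alternatives other than DESeq2 (17), limma-voom (4), a shared depth term (1), the replicate block (1, TRIM25), the set without the 3 libraries that hold another line's genes (9), and the omission of a TMD8 library (0 to 2). Against OCILy10 it was 0 apart from DESeq2 (9), limma-voom (1) and the omission of a library (0 to 1). The replicate block gave 0 for this difference. Both DESeq2 counts include the log2 differences of extreme size given above.

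Of the 72 named genes that were called, all kept their direction under every alternative run, 54 kept the call with the replicate block and 28 kept it whichever of the 6 libraries was left out. The shallow libraries, at 1309531 to 2175778 counts in TMD8, limit the calls of genes at a few CPM, where 1 count is worth 0.481 CPM or more after scaling in DMSO replicate 3.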
